A study of Mus musculus with 20 samples.

Results

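The genotype by oxygen interaction was measured in whole lung as the hypoxia response of VIPKO mice minus the hypoxia response of WT mice, each response being hypoxia minus normoxia on the log2(signal + 1) scale. All 20 of 20 libraries entered it, 5 from VIPKO hypoxia, 4 from VIPKO normoxia, 5 from WT hypoxia and 6 from WT normoxia, and no measured value chose them. The mice were C57BL/6 WT or mice carrying a deletion of the Vip gene, called a knockout in the titles and a knockdown in the genotype field. They spent 4 weeks in 10% oxygen (hypoxia) or 21% oxygen (normoxia), and the labels place every library in 1 batch. Age, sex and whether each library came from a separate animal are not stated in the labels, so p-values measure the spread between these libraries. An interaction of 0 means that the 2 changes added up on the log2 scale, and a positive one means that the VIPKO response lay above the WT response.

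Vasoactive intestinal peptide is a neuropeptide that relaxes vascular and airway smooth muscle through G protein-coupled receptors that raise cyclic AMP. Chronic hypoxia constricts and remodels small pulmonary arteries and raises pulmonary artery pressure in mice. The design asks whether the loss of the peptide changes what the lung does in low oxygen or only adds its own change on top.

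The Vip gene did not separate the genotypes. Its signal was 2.17, 4.70, 1.08, 106 and 1.20 in VIPKO hypoxia, 5.32, 5.54, 4.27 and 1.16 in VIPKO normoxia, 2.38, 6.77, 1.38, 0 and 3.43 in WT hypoxia, and 0, 3.64 and 93.0 (lowest, median and highest) in WT normoxia. VIPKO minus WT was 1.00 in hypoxia (2-sided exact permutation p = 0.532) and -0.45 in normoxia (p = 0.719), on the log2 scale. The library labelled VIPKO hypoxia 4 held the highest value, which on its face goes against its label. Which part of the gene was deleted is not stated, so Vip could not check the labels, and every direction below rests on them. Without the library labelled VIPKO hypoxia 4, 9 interactions were called in place of 61, 7 higher and 2 lower. Leaving out 1 library at a time gave 4 to 541 calls. Vip itself was not tested, since too few libraries reached a signal of 10. Surfactant protein C (Sftpc), which marks alveolar type 2 cells, was at 170200, 177200, 251500, 180300 and 138300 in the VIPKO hypoxia libraries, 122200, 149600, 127000 and 172700 in VIPKO normoxia, 245000, 236900, 226200, 144700 and 188500 in WT hypoxia, and had a lowest, median and highest value of 57000, 127900 and 168700 in WT normoxia. Depth estimated from the smallest step of the values ran from 4.96 to 56.7 M reads, lowest in WT hypoxia 4. On the first 2 principal components (21.0% and 15.5% of variance) VIPKO hypoxia 2, VIPKO normoxia 2 and VIPKO normoxia 3 stood at 65.4, 59.2 and 75.4 on the first, and VIPKO hypoxia 3 at -76.2 on the other side. Thymus genes summed to 19450 in VIPKO hypoxia 3 and skeletal muscle genes to 41120 in WT hypoxia 5, the highest of any library for each list.

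The hypoxia response differed between the genotypes for a small set of genes. With limma and a Benjamini-Hochberg adjusted p under 0.05, 61 of 21658 genes (0.282%) had an interaction, 29 of them higher (0.134%) and 32 lower (0.148%) in VIPKO. At an unadjusted p under 0.05 there were 3082. The hypoxia response itself was called for 216 genes in VIPKO (0.997%), 133 up (0.614%) and 83 down (0.383%), and for 3173 in WT (14.7%), 1707 up (7.88%) and 1466 down (6.77%). VIPKO against WT was called for 350 genes in hypoxia (1.62%), 155 higher (0.716%) and 195 lower (0.9%), and for 1873 in normoxia (8.65%), 1015 higher (4.69%) and 858 lower (3.96%). VIPKO hypoxia against WT normoxia was called for 2666 (12.3%), 1385 higher (6.39%) and 1281 lower (5.91%).

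The 2 hypoxia responses share no library, and across the 21658 genes they were weakly related (Pearson's r = 0.290, Spearman's rho = 0.330, given as a description). Over all 21658 genes, 62.42% had the same sign in both genotypes. Of the 216 genes called in VIPKO, 81.02% had the same sign in WT. Of the 3173 called in WT, 73.3% had the same sign in VIPKO, where the medians were 0.11 for those up and -0.23 for those down, against 0.59 and -0.86 in WT. The genes called in VIPKO had medians of 0.84 for those up and -1.14 for those down in VIPKO, against 0.25 and -0.76 in WT. Genes called in 1 genotype were picked for their change there, which favours smaller medians in the other, so these medians are a description. Genes called in both made up 47.2% of the VIPKO calls and 3.21% of the WT calls. They comprised 98 with the same sign, 44 up and 54 down, and 4 with opposite signs, Adamtsl4, Dpp9, Septin8 and 1700023B13Rik, which were up in VIPKO and down in WT.

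**Figure D1:**
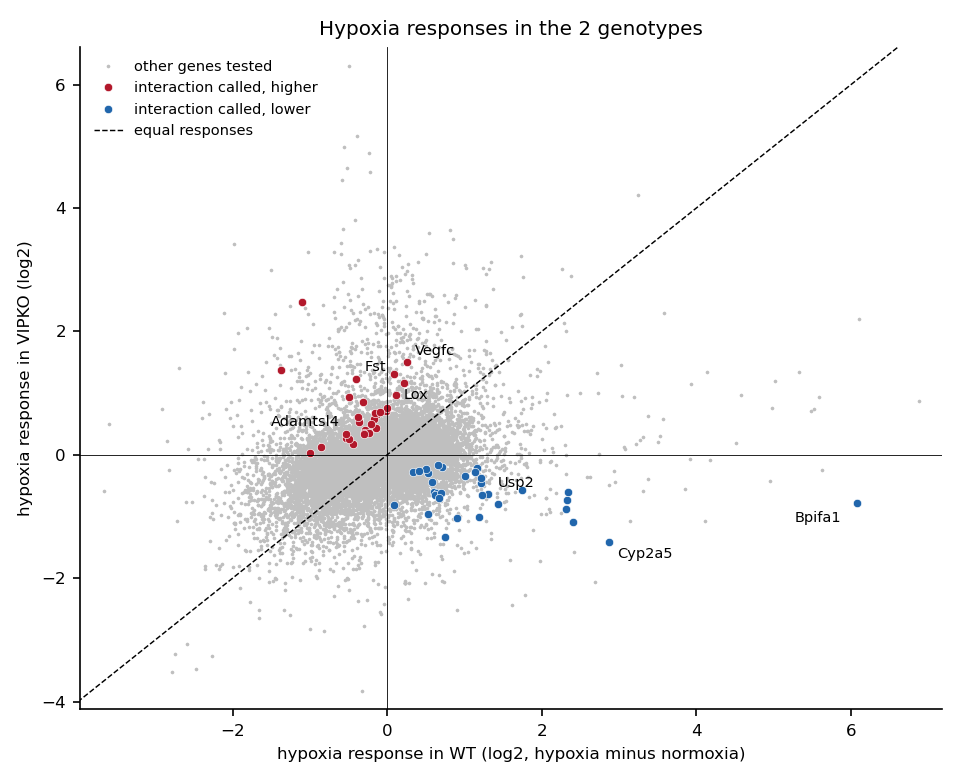
Hypoxia response in VIPKO (vertical axis) against that in WT (horizontal axis), both log2 hypoxia minus normoxia, for 21658 genes. The 29 genes called higher (red) lie above the dashed line of equal responses, the 32 called lower (blue) below it, and 57 of the 61 lie where the 2 responses have opposite signs.

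In most called genes the observed change was smaller in size than the sum of the single changes. The expected change was taken as the VIPKO effect in normoxia plus the hypoxia effect in WT, and the observed change as VIPKO hypoxia minus WT normoxia. A called gene was less than additive where the observed change was smaller in size than the expected one and the interaction opposed it, overturned where the interaction opposed the expected change and the observed one was at least as large, and synergistic where both pointed one way. Of the 61 genes, 52 were less than additive, 7 were overturned and 2 were synergistic. Among the 52, both single changes were positive in 31 and negative in 21. The rule compares sizes only, and in some of the 52 the observed change had the opposite sign to the expected one. Examples are Trim9 (1.42 expected, -0.66 observed) and Fer1l4 (1.48 expected, -0.45 observed). The 32 lower genes had a median expected change of 1.80 and a median observed change of 0.31, and the 29 higher genes -0.85 and 0.01. The expected change and the interaction share 3 of the 4 groups with opposite signs, so the class shares are a description. On linear signal the interaction kept its sign in 61 of 61 genes and the class in 59. Where the expected change is near 0, only its sign decides between synergistic and overturned. It was 0.19 for Vegfc and 0.27 for Srgn, against -0.04 for Gpx3, -0.18 for Adam15 and -0.20 for Lox. For these genes the 2 classes are not well separated.

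The 2 synergistic genes were Vegfc and Srgn. Vegfc encodes vascular endothelial growth factor C, the ligand that drives growth of lymphatic vessels. Its signal was 588, 564, 594, 808 and 693 in the VIPKO hypoxia libraries, 256, 233, 182 and 239 in VIPKO normoxia, 288, 318, 249, 284 and 268 in WT hypoxia, and had a lowest, median and highest value of 192, 231 and 346 in WT normoxia. The VIPKO hypoxia libraries lay above all others and the other 3 groups overlapped. The response was 1.51 ± 0.15 (adjusted p = 3.29e-05) in VIPKO and 0.25 ± 0.14 (adjusted p = 0.21) in WT, an interaction of 1.26 ± 0.21 (adjusted p = 0.0179). The gene lies on chromosome 8, 54077606 to 54187096 (GRCm38). Srgn, which encodes serglycin, a proteoglycan of secretory granules in blood cells and endothelium, was at 2103, 1822, 2290, 2059 and 1879 in the VIPKO hypoxia libraries, 1247, 1148, 1145 and 1415 in VIPKO normoxia, 926, 1022, 1112, 1038 and 891 in WT hypoxia, and had a lowest, median and highest value of 849, 993 and 1263 in WT normoxia. Here too only the VIPKO hypoxia libraries stood clear of the rest, with an interaction of 0.73 ± 0.14 (adjusted p = 0.0322). For comparison, Vegfa, the principal angiogenic factor of the family, averaged 12700 ± 554 in VIPKO hypoxia, 14240 ± 1457 in VIPKO normoxia, 14460 ± 946 in WT hypoxia and 18840 ± 2717 in WT normoxia (SD). Its interaction was 0.21 ± 0.14 with a 95% interval of -0.08 to 0.50, which is additive within 1.5-fold.

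Fst and the overturned genes came next in the higher set. Fst encodes follistatin, a secreted protein that binds activins and keeps them from their receptors. Its signal was 171, 126, 151, 176 and 228 in the VIPKO hypoxia libraries, 73.6, 86.4, 55.5 and 71.0 in VIPKO normoxia, 49.1, 93.1, 77.5, 77.7 and 78.8 in WT hypoxia, and had a lowest, median and highest value of 91.6, 97.4 and 105 in WT normoxia. VIPKO hypoxia libraries were above every other library, and WT normoxia lay above VIPKO normoxia without overlap. The response was 1.23 ± 0.19 (adjusted p = 0.00136) in VIPKO and -0.41 ± 0.17 (adjusted p = 0.102) in WT. Its interaction of 1.63 ± 0.25 (adjusted p = 0.0163) was exceeded by those of the gene models 1700023B13Rik and Gm34455 (3.57, named after its value was seen), and Fst lies on chromosome 13, 114452290 to 114458951. By the size rule it counted as less than additive, with -0.87 expected and 0.77 observed, although the 2 have opposite signs.

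Lox encodes lysyl oxidase, which crosslinks collagen and elastin. Its signal was 3370, 2744, 2269, 2598 and 2207 in the VIPKO hypoxia libraries, 934, 1101, 1098 and 1063 in VIPKO normoxia, 883, 1898, 1475, 1427 and 1255 in WT hypoxia, and had a lowest, median and highest value of 985, 1194 and 1703 in WT normoxia. All VIPKO hypoxia libraries exceeded the other 15. The response was 1.31 ± 0.19 (adjusted p = 0.000758) in VIPKO and 0.08 ± 0.17 (adjusted p = 0.77) in WT, an interaction of 1.23 ± 0.25 (adjusted p = 0.0397). Serpina3n, a secreted serine protease inhibitor of a family of close copies among which reads may be split, was at 2440, 1844, 1935, 2983 and 2869 in the VIPKO hypoxia libraries, 1312, 1734, 938 and 1098 in VIPKO normoxia, 576, 1206, 949, 1104 and 882 in WT hypoxia, and had a lowest, median and highest value of 980, 1292 and 1642 in WT normoxia. Its interaction was 1.43 ± 0.29 (adjusted p = 0.0384), with VIPKO hypoxia again above every other library.

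Gpx3 and Adam15 had the same shape. Gpx3, the extracellular glutathione peroxidase, averaged 23300 ± 2423 in VIPKO hypoxia, 10520 ± 1796 in VIPKO normoxia, 14640 ± 1978 in WT hypoxia and 12540 ± 1496 in WT normoxia (SD, n = 5, 4, 5 and 6), an interaction of 0.94 ± 0.18 (adjusted p = 0.0293). Adam15, a membrane-anchored metalloprotease, averaged 3346 ± 321 in VIPKO hypoxia, 1719 ± 185 in VIPKO normoxia, 2293 ± 306 in WT hypoxia and 2105 ± 156 in WT normoxia, an interaction of 0.84 ± 0.13 (adjusted p = 0.0179). The remaining 3 overturned genes lie outside the naming rule and are named after their values were seen. Plod1, a lysyl hydroxylase of collagen, had 0.78 ± 0.17 (adjusted p = 0.0463), and Apba1, a synaptic adaptor protein, 0.77 ± 0.15 (adjusted p = 0.0384). Cspg4b ran the other way at -0.91 ± 0.19 (adjusted p = 0.0453), with 270, 310, 314, 382 and 462 in VIPKO hypoxia and between 451 and 711 in the other 15 libraries, of which WT normoxia 5 lay lowest and within the VIPKO hypoxia range.

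A second set was low in VIPKO normoxia and near the WT level in VIPKO hypoxia. The VIPKO normoxia mean lay farthest below the other 3 groups for 13 of the 61 genes. Adamtsl4, whose interaction had the smallest p of all genes, encodes a secreted matrix glycoprotein that binds fibrillin. Its signal was 2021, 1741, 1614, 1327 and 1551 in the VIPKO hypoxia libraries, 1185, 1161, 1139 and 1034 in VIPKO normoxia, 1381, 1435, 1422, 1516 and 1316 in WT hypoxia, and had a lowest, median and highest value of 1591, 1864 and 1956 in WT normoxia. No VIPKO normoxia library reached any VIPKO hypoxia or WT library. The response was 0.54 ± 0.10 (adjusted p = 0.00617) in VIPKO and -0.37 ± 0.09 (adjusted p = 0.0116) in WT, an interaction of 0.90 ± 0.13 (adjusted p = 0.0117), and the gene lies on chromosome 3, 95676201 to 95687917.

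Kif26a, a kinesin family member, was at 1348, 1490, 1260, 1353 and 1205 in VIPKO hypoxia and 928, 847, 685 and 872 in VIPKO normoxia, and 1059, 1035, 1318, 1878 and 1326 in WT hypoxia against a lowest, median and highest of 1375, 1448 and 1500 in WT normoxia. Its interaction was 0.84 ± 0.18 (adjusted p = 0.0434), and the VIPKO response alone was called (0.68 ± 0.13 (adjusted p = 0.0112) in VIPKO, -0.16 ± 0.12 (adjusted p = 0.36) in WT). Rtl8a, a retrotransposon-derived gene with near-identical copies, had 1.00 ± 0.21 (adjusted p = 0.0425), with WT normoxia 5 low at 1516. Dpp9, a cytosolic dipeptidyl peptidase, had 0.69 ± 0.12 (adjusted p = 0.0186). Its values were 1995, 1678, 1675, 1600 and 1537 in VIPKO hypoxia and 1263, 1340, 1375 and 1150 in VIPKO normoxia, and 1388, 1320, 1262, 1528 and 1405 in WT hypoxia against a lowest, median and highest of 1541, 1651 and 1886 in WT normoxia. The gene model 1700023B13Rik, which has no assigned role here, had 2.75 ± 0.45 (adjusted p = 0.0179). Septin8, a cytoskeletal GTPase, had 0.59 ± 0.12 (adjusted p = 0.0371) and stood farthest out in VIPKO hypoxia instead. Both were named after their values were seen.

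The 5 genes whose log2 signal followed Adamtsl4 most closely over the 20 libraries were Nod1 (Pearson's r = 0.904), Arhgap27 (0.833), Dpp9 (0.828), Nbeal2 (0.822) and Dvl1 (0.817), as a description. Nod1, a sensor of bacterial cell wall fragments, was at 2409, 2260, 1931, 1874 and 1874 in VIPKO hypoxia and 1782, 1770, 1515 and 1484 in VIPKO normoxia, and 1767, 2015, 1900, 2356 and 1968 in WT hypoxia against a lowest, median and highest of 2261, 2472 and 2561 in WT normoxia, an interaction of 0.63 ± 0.13 (adjusted p = 0.0384). The interactions of the other 3 were 0.43, 0.72 and 0.42 and did not pass (adjusted p = 0.0748, 0.0874 and 0.107).

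Other higher genes fell in WT hypoxia and had no called response in VIPKO. Lipg encodes endothelial lipase, which acts on high-density lipoprotein. Its signal was 1301, 1168, 967, 961 and 1236 in the VIPKO hypoxia libraries, 1213, 896, 1336 and 997 in VIPKO normoxia, 510, 467, 771, 882 and 676 in WT hypoxia, and had a lowest, median and highest value of 1079, 1331 and 1449 in WT normoxia. No WT hypoxia library reached a library of the other groups. The response was 0.03 ± 0.16 (adjusted p = 0.964) in VIPKO and -1.005 ± 0.15 (adjusted p = 0.00117) in WT, an interaction of 1.03 ± 0.22 (adjusted p = 0.0498). Rras2, a Ras-related GTPase, had 0.28 ± 0.10 in VIPKO and -0.54 ± 0.09 in WT, an interaction of 0.82 ± 0.13 (adjusted p = 0.0179). Gfod1 had 0.34 ± 0.13 and -0.53 ± 0.12, an interaction of 0.87 ± 0.18 (adjusted p = 0.0397). The WT responses of Rras2 and Gfod1 passed (adjusted p = 0.00228 and 0.00981), and those in VIPKO did not (0.226 and 0.282).

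**Figure D2:**
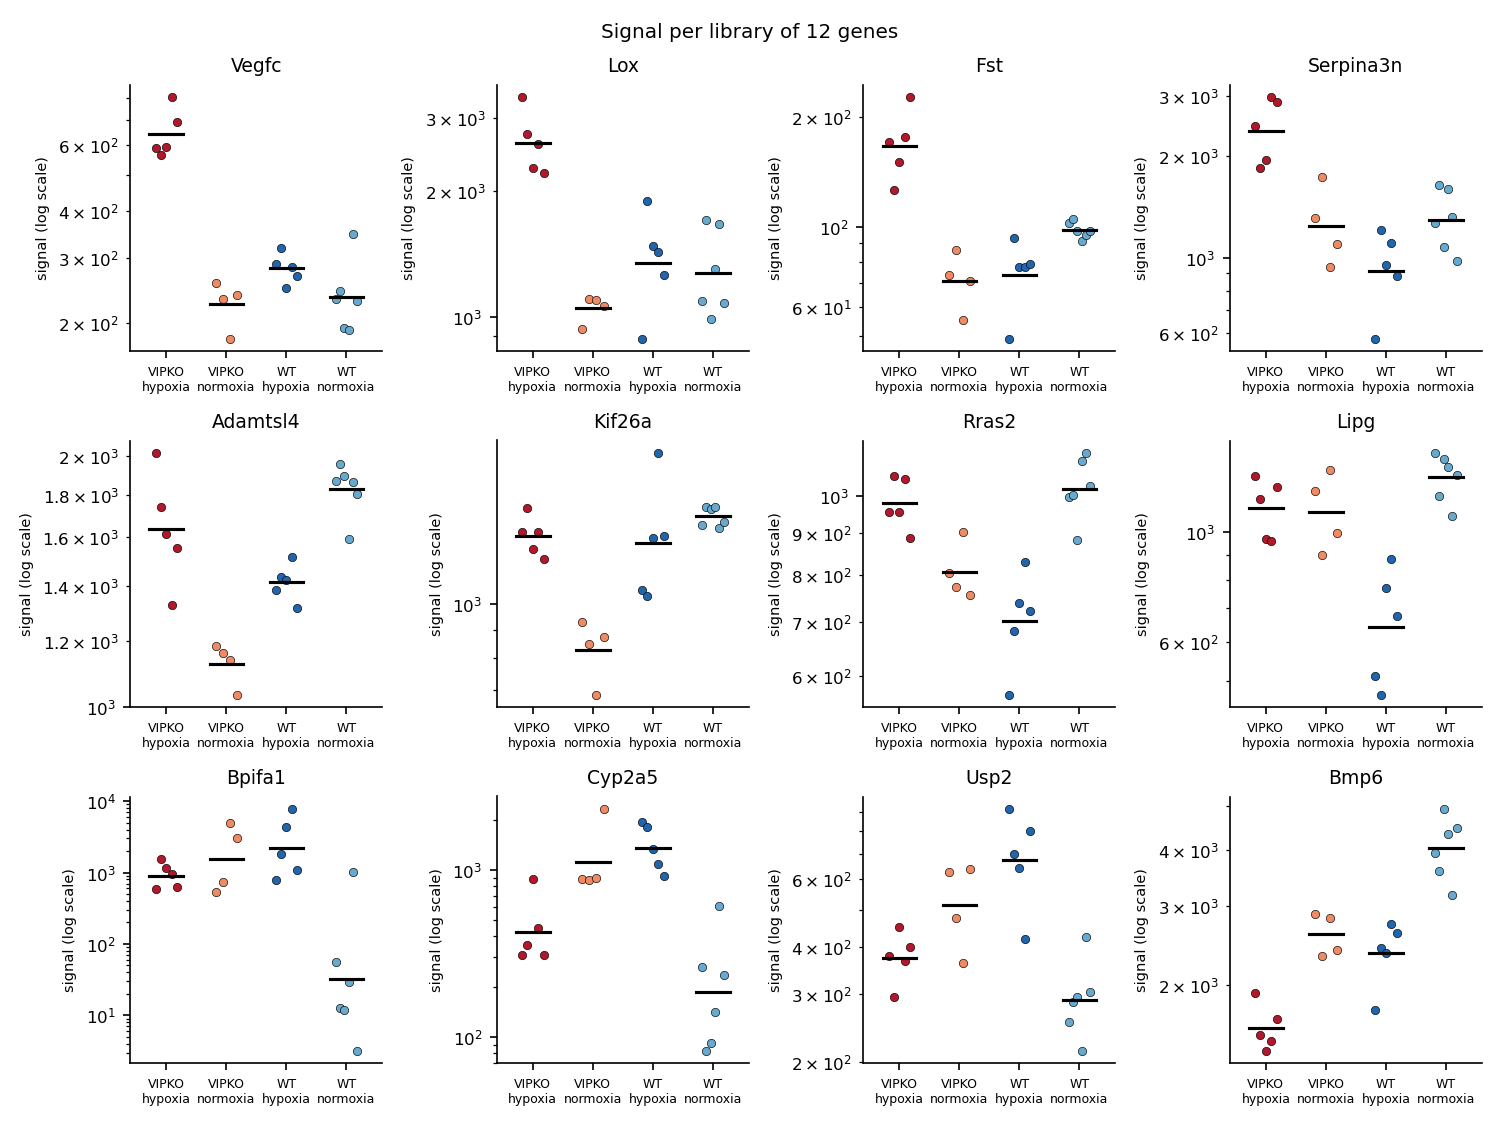
Signal per library (log axis) of 12 genes in VIPKO hypoxia, VIPKO normoxia, WT hypoxia and WT normoxia, with lines at the mean on the log2(signal + 1) scale. Vegfc, Lox, Fst and Serpina3n are highest in VIPKO hypoxia, Adamtsl4 and Kif26a lowest in VIPKO normoxia, Lipg lowest in WT hypoxia, and Bpifa1 and Cyp2a5 lowest in WT normoxia, while Bmp6 steps down with each change.

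Of the 32 genes with a lower interaction, 31 had positive estimates for both single changes. WT normoxia lay farthest below the other groups for 19 of the 61 genes. Cyp2a5 encodes a cytochrome P450 that hydroxylates coumarin and nicotine and has close copies that may share its reads. Its signal was 308, 357, 884, 450 and 308 in the VIPKO hypoxia libraries, 881, 867, 896 and 2332 in VIPKO normoxia, 1941, 1810, 1331, 1081 and 925 in WT hypoxia, and had a lowest, median and highest value of 82.1, 188 and 608 in WT normoxia. WT hypoxia libraries lay above all WT normoxia and VIPKO hypoxia libraries, and VIPKO normoxia lay above WT normoxia. The response was -1.41 ± 0.47 (adjusted p = 0.182) in VIPKO and 2.87 ± 0.42 (adjusted p = 0.00117) in WT, an interaction of -4.28 ± 0.63 (adjusted p = 0.0117), with 5.46 expected and 1.19 observed. The gene lies on chromosome 7, 26835305 to 26843548.

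Bpifa1, a secreted antimicrobial protein of the upper airway, had the most negative interaction, -6.87 ± 1.46 (adjusted p = 0.048). Its signal was 583, 1533, 1162, 947 and 621 in the VIPKO hypoxia libraries, 541, 739, 5008 and 3000 in VIPKO normoxia, 785, 1827, 4373, 7844 and 1089 in WT hypoxia, and had a lowest, median and highest value of 3.15, 20.8 and 1007 in WT normoxia. WT normoxia 5 held 1007 and lay among the other groups, while the remaining WT normoxia libraries were at 56.3 or less. The WT response was 6.08 ± 0.98 (adjusted p = 0.00184) and the VIPKO response -0.79 ± 1.09 (adjusted p = 0.792).

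Enzymes of foreign compound metabolism followed the same shape. Sult1d1, a sulfotransferase, was at 145, 103, 111, 184 and 102 in VIPKO hypoxia and 142, 164, 312 and 390 in VIPKO normoxia, and 371, 198, 324, 226 and 169 in WT hypoxia against a lowest, median and highest of 23.5, 36.0 and 170 in WT normoxia, an interaction of -3.18 ± 0.59 (adjusted p = 0.0293). Gsto1, a glutathione transferase, averaged 1004 ± 280 in VIPKO hypoxia, 1274 ± 341 in VIPKO normoxia, 1326 ± 179 in WT hypoxia and 670 ± 140 in WT normoxia (SD), an interaction of -1.34 ± 0.27 (adjusted p = 0.0384). Adh7, which oxidizes retinol and ethanol, had -2.31 ± 0.49 (adjusted p = 0.0438), and Lypd2, a Ly6 family member, -2.24 ± 0.45 (adjusted p = 0.0384). Serpina9 had -2.94 ± 0.60 (adjusted p = 0.0397), from 35.0, 42.5, 61.5, 60.8 and 25.2 in VIPKO hypoxia and 25.7, 83.1, 92.0 and 93.1 in VIPKO normoxia, and 73.6, 49.1, 85.8, 113 and 67.4 in WT hypoxia against a lowest, median and highest of 5.03, 14.2 and 37.8 in WT normoxia. Of the 22 tested genes in the list of xenobiotic metabolism and aryl hydrocarbon receptor targets, 3 were called lower (Cyp2a5, Sult1d1 and Gsto1) and 0 higher, beside 0.148% and 0.134% of all genes. At an unadjusted p under 0.05, 11 of the 22 were lower and 0 higher, beside 7.79% and 6.44% of all genes. The median interaction was -0.59, against 0.01 over all genes, and it was -0.08 with the summed airway signal as a covariate.

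Genes of motile cilia had negative estimates. Ak8, an adenylate kinase of the ciliary axoneme, was at 79.8, 79.4, 128, 78.6 and 75.5 in VIPKO hypoxia and 95.8, 101, 126 and 132 in VIPKO normoxia, and 203, 149, 147, 105 and 99.4 in WT hypoxia against a lowest, median and highest of 51.0, 56.5 and 73.9 in WT normoxia, an interaction of -1.59 ± 0.28 (adjusted p = 0.0262). Ift46, a part of the intraflagellar transport complex named after its values were seen, had -0.61 ± 0.11 (adjusted p = 0.0262). In the list of motile cilia genes limma called 0 of 18. At an unadjusted p under 0.05, 16 were lower, beside 7.79% of all genes, and all 18 were negative, beside 48.8% of all genes. The median was -0.90, and -0.33 with the airway covariate. Dnah5, a dynein heavy chain, had -1.17 ± 0.28 (adjusted p = 0.0748), and Dynlrb2, a dynein light chain, -1.15 ± 0.28 (adjusted p = 0.0748).

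Usp2, a deubiquitinase under circadian control, was at 379, 296, 449, 367 and 399 in the VIPKO hypoxia libraries, 628, 475, 363 and 638 in VIPKO normoxia, 917, 699, 640, 420 and 800 in WT hypoxia, and had a lowest, median and highest value of 213, 291 and 424.8 in WT normoxia. WT hypoxia 4 and VIPKO normoxia 3 were the lowest of their groups. The response was -0.45 ± 0.21 (adjusted p = 0.379) in VIPKO and 1.21 ± 0.19 (adjusted p = 0.00175) in WT, an interaction of -1.67 ± 0.29 (adjusted p = 0.0256). Of 20 clock genes it was the 1 called, beside 0.282% of all genes. At an unadjusted p under 0.05, 9 were lower and 3 higher, beside 7.79% and 6.44% of all genes. The median was -1.003, and it changed sign to 0.10 with log2 Dbp minus Arntl as a covariate. That covariate is itself made of clock genes, so a move towards 0 was built in and tests nothing about the list. Lower-signal genes completed the named lower set. Bbox1, the last enzyme of carnitine synthesis, had -2.19 ± 0.45, Trim9, a ubiquitin ligase, -2.08 ± 0.42, Fer1l4 -1.93 ± 0.41 and Unc79, a subunit of the sodium leak channel complex, -1.93 ± 0.35 (adjusted p = 0.041, 0.0384, 0.048 and 0.0262). WT hypoxia 1 held the highest Unc79 value of any library, 742, and the highest Fer1l4 value, 92.6.

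The sequence upstream of the start is shown for 4 genes, Vegfc (VIPKO hypoxia highest), Adamtsl4 (VIPKO normoxia lowest), Cyp2a5 (the called interaction with the same smallest adjusted p) and Usp2 (the called clock gene), since the 250 bases before the start are where a shared site would be looked for first. They come from RefSeq (GRCm38.p6), 5′ to 3′ on the gene's own strand, and capitals mark matches on either strand to ACGTG or GCGTG, the core of the hypoxia response element. The ranges are chr8:54077282-54077531 on the plus strand for Vegfc, chr3:95687918-95688167 on the minus strand for Adamtsl4, chr7:26835089-26835338 on the plus strand for Cyp2a5 and chr9:44084670-44084919 on the plus strand for Usp2, where the start is an inner one of the gene.
Vegfc: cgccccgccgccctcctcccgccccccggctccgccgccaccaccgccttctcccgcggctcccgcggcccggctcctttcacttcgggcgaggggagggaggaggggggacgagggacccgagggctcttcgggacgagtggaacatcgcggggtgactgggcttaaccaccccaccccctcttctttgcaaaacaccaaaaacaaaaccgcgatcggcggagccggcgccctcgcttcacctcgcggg
Adamtsl4: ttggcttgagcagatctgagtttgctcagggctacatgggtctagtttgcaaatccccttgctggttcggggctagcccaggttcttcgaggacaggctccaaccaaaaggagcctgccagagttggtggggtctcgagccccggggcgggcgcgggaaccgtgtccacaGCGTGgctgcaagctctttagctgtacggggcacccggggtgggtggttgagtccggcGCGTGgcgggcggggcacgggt
Cyp2a5: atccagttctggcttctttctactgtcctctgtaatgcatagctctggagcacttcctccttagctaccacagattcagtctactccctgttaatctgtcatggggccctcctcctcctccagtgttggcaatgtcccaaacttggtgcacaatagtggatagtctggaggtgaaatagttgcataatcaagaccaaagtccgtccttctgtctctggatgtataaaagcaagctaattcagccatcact
Usp2: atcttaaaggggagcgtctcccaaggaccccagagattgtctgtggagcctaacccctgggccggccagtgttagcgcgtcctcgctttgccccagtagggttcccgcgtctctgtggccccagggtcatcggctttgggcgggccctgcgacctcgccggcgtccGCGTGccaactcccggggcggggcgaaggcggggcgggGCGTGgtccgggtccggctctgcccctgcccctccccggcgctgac
Adamtsl4 and Usp2 each held 2 matches, and Vegfc and Cyp2a5 held none. Of the 50 called genes in the RefSeq table, 31 held a match, against 56.6% of 13138 tested genes in it and 38.6% of all 32851 promoters. The E-box CACGTG, which contains ACGTG, was in 5 of the 50 (10.0%), against 9.0% of the tested genes and 6.0% of all promoters. The cyclic AMP response element TGACGTCA was in 0 of the 50, against 2.7% and 1.5%.

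Some genes changed by nearly the sum of both single changes. Bmp6, an endothelial bone morphogenetic protein, was at 1916, 1545, 1423, 1499 and 1676 in the VIPKO hypoxia libraries, 2878, 2323, 2820 and 2388 in VIPKO normoxia, 1760, 2416, 2359, 2733 and 2604 in WT hypoxia, and had a lowest, median and highest value of 3168, 4126 and 4935 in WT normoxia. Every VIPKO hypoxia library lay below every VIPKO normoxia and WT normoxia library. The response was -0.69 ± 0.13 (adjusted p = 0.0114) in VIPKO and -0.78 ± 0.12 (adjusted p = 0.00155) in WT. Expected and observed changes were -1.41 and -1.33, an interaction of 0.08 ± 0.18 with a 95% interval of -0.29 to 0.46. Adrb1, the beta-1 adrenergic receptor, had -1.02 expected and -0.95 observed, with an interval of -0.25 to 0.38 for the interaction. Prkce, a protein kinase C, and Neurl1b, a ubiquitin ligase of Notch ligands, had interactions of 0.09 and 0.11.

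The 4 examples with positive changes included S100a6, a calcium-binding protein, at 2622, 2086, 3591, 3173 and 2378 in the VIPKO hypoxia libraries, 1894, 2032, 1603 and 2653 in VIPKO normoxia, 1908, 1907, 1790, 1567 and 1842 in WT hypoxia, and had a lowest, median and highest value of 866, 1283 and 1609 in WT normoxia. The WT hypoxia and WT normoxia ranges overlapped, and VIPKO hypoxia lay above both WT groups. Its expected and observed changes were 1.20 and 1.11, and the interval of the interaction was -0.57 to 0.41. Mme, the endopeptidase neprilysin that degrades vasoactive peptides, had 0.74 and 0.66. Ostf1 had 0.50 and 0.44, and Chmp5, a subunit of the membrane-remodelling ESCRT machinery, 0.66 and 0.52. These 8 were picked for interactions near 0, so their closeness is a description. Over all genes, 6371 (29.4%) had an uncalled interaction whose 95% interval lay within 1.5-fold of 0, and 5230 more (24.1%) within 2-fold. For 9996 (46.2%) the interval was wider and additivity could be neither shown nor refused. The median half-width over all genes was 0.59.

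**Figure D3:**
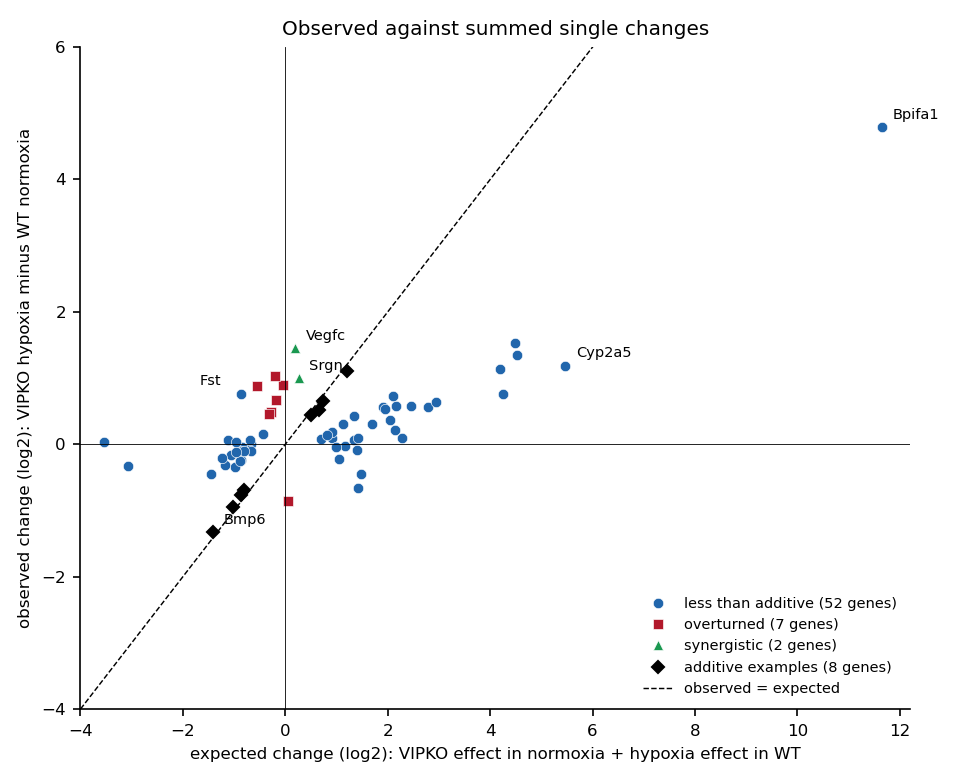
Observed change (VIPKO hypoxia minus WT normoxia, vertical axis) against the expected sum of single changes (horizontal axis), log2, for the 61 called genes by class and 8 additive examples. The 52 less than additive genes lie nearer to 0 than the dashed line, Vegfc and Srgn lie above it, and the additive examples lie along it by choice.

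In most of the 42 lists of genes grouped by function, 0 genes were called with limma, beside 0.282% of all genes. Over all genes the median interaction was 0.01 and 48.8% of the interactions were negative, with 7.79% lower and 6.44% higher at an unadjusted p under 0.05. Airway secretory and mucosal genes had 1 of 20 called (Bpifa1), 20 of 20 negative, 12 lower at an unadjusted p under 0.05 and a median of -2.06, which was -1.07 with a pseudocount of 8. Defining members named after their values were seen did not pass. Scgb1a1, the club cell secretoglobin, had -0.84 ± 0.32 (adjusted p = 0.24), and the airway mucin Muc5b -3.36 ± 0.84 (adjusted p = 0.0846) with 3975, 5495, 8970, 3538 and 2709 in VIPKO hypoxia and 2605, 10830, 7485 and 7518 in VIPKO normoxia, and 8038, 3927, 7422, 6915 and 4177 in WT hypoxia against a lowest, median and highest of 288, 493 and 4576 in WT normoxia. Adipocyte genes had 0 of 16 called by limma, 8 lower at an unadjusted p under 0.05 and a median of -1.91. Their summed signal ran the other way, with medians of 75530 in VIPKO hypoxia and 29880 in VIPKO normoxia, and 49860 in WT hypoxia and 29150 in WT normoxia. Retn, which encodes the hormone resistin, and Cfd, which encodes the adipocyte-secreted complement factor D, had -4.23 ± 1.03 and -4.78 ± 1.20 (adjusted p = 0.0748 and 0.0872). WT hypoxia 5 held the highest values of both, 240 and 5589, and Retn was listed at 0 in 2 WT normoxia libraries.

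Lists of energy metabolism and protein synthesis had negative medians with 0 calls by limma, and these medians were nearer to 0 with covariates. Over all genes, 0.148% were called lower, 7.79% were lower at an unadjusted p under 0.05 and 48.8% were negative. Limma called 0 of the 28 cytosolic ribosomal protein genes, 15 were lower at an unadjusted p under 0.05 and the median was -0.56 (-0.22 with the airway covariate), with Rps29 at -1.17 and Rpl4 at -0.54. Nuclear genes of oxidative phosphorylation had 30 of 30 negative, 8 at an unadjusted p under 0.05 and a median of -0.42, which was -0.07 with mitochondrial ribosomal RNA as a covariate. The mitochondrially encoded genes had 15 of 15 negative, 3 at an unadjusted p under 0.05 and a median of -0.60, which was -0.04 with the airway covariate. Alveolar macrophage genes had 0 of 17 called by limma, 4 lower at an unadjusted p under 0.05 and a median of -0.56 (-0.16 with the clock covariate), with the eosinophil-associated ribonucleases Ear2 and Ear1, which are close copies, at -1.06 and -1.36.

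Vessel wall and matrix lists had positive medians and few calls. Arterial and Notch genes had 1 of 18 higher (Vegfc) and a median of 0.38, and collagen and crosslinking genes 1 of 21 (Lox) and 0.46. Matrix and protease genes had 1 of 28 (Serpina3n) and 0.39, and BMP and TGF-beta signalling 1 of 37 (Fst) and 0.11. Over all genes 0.134% were called higher. At an unadjusted p under 0.05, arterial genes had 8 higher and 2 lower, and collagen genes 7 and 0. Matrix genes had 6 and 2, and BMP genes 9 and 1, beside 6.44% higher and 7.79% lower of all genes. Smooth muscle contraction genes had 0 of 16 called, 1 higher at an unadjusted p under 0.05 and a median of 0.64, with Tagln at 1.16 ± 0.51 (adjusted p = 0.307) and Mylk at 0.49 ± 0.28 (adjusted p = 0.45). That median was -0.35 with the airway list as a covariate and -0.16 with the clock genes as one. The summed smooth muscle signal ranged from 21020 to 40550 in VIPKO hypoxia, 23550 to 39330 in VIPKO normoxia, 13920 to 45450 in WT hypoxia and 22830 to 41800 in WT normoxia, so the groups overlapped. The collagen median likewise changed sign with the airway list as a covariate (-0.02). The arterial, matrix and BMP medians stayed positive in all 36 alternatives but came as low as 0.23 and 0.02 with the airway covariate and 0.0015 without WT hypoxia 1, in that order.

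Peptide and oxygen pathways held genes of interest without a call. The VIP receptors Vipr1 and Vipr2 had -0.72 ± 0.30 (adjusted p = 0.287) and 0.70 ± 0.31 (adjusted p = 0.312). Ramp3, which turns the calcitonin-like receptor into an adrenomedullin receptor, was at 187, 144, 142, 137 and 173 in the VIPKO hypoxia libraries, 45.2, 49.9, 33.1 and 53.6 in VIPKO normoxia, 88.7, 98.1, 66.4, 58.3 and 74.2 in WT hypoxia, and had a lowest, median and highest value of 34.6, 48.2 and 79.8 in WT normoxia. Its response was 1.78 ± 0.22 (adjusted p = 0.000154) in VIPKO and 0.61 ± 0.20 (adjusted p = 0.0479) in WT, an interaction of 1.17 ± 0.30 (adjusted p = 0.0937). Adm, the adrenomedullin gene, had 2.32 ± 0.65 (adjusted p = 0.11). Limma called 0 of 32 vasoactive genes, beside 0.282% of all genes, and their median was 0.17. At an unadjusted p under 0.05, 5 of them had a higher interaction, beside 6.44% of all genes.

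Rgs5, a pericyte regulator of G protein signalling, was raised by hypoxia in both genotypes, 2.88 ± 0.35 (adjusted p = 0.000119) in VIPKO and 1.75 ± 0.31 (adjusted p = 0.00302) in WT, and its interaction of 1.13 ± 0.47 (adjusted p = 0.275) did not pass. Its highest value, 2964, was in the library labelled VIPKO hypoxia 4. Trpv4, a calcium channel of vessel and airway cells, likewise rose by 0.91 ± 0.11 in VIPKO and 0.42 ± 0.10 in WT, with an interaction of 0.49 ± 0.15 (adjusted p = 0.143). HIF targets and glycolysis genes had 0 of 36 called, with 2 higher and 4 lower at an unadjusted p under 0.05. Over all genes the shares at that p were 6.44% and 7.79%, and 0.282% were called. The median of the HIF and glycolysis list was -0.22, which changed sign to 0.05 with the mitochondrial ribosomal RNA covariate. In that list Aldoc, a glycolytic aldolase, had -1.08 ± 0.37 (adjusted p = 0.187) and P4ha1, a collagen prolyl hydroxylase, 0.60 ± 0.21 (adjusted p = 0.19). The median hypoxia response of the list was 0.32 in VIPKO and 0.50 in WT. Capillary endothelial genes were near the background, with 0 of 18 called, 2 higher at an unadjusted p under 0.05 and a median of 0.06, which was -0.05 with the airway covariate and -0.03 without WT hypoxia 1.

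Heat shock and immediate early lists had positive medians. Over all genes, 6.44% were higher and 7.79% lower at an unadjusted p under 0.05, and 0.282% were called by limma. Of 16 heat shock and cold-inducible genes limma called 0, 8 were higher and 2 lower at an unadjusted p under 0.05, and the median was 0.64. The heat shock gene Hspa1a, which has a near-identical copy, had 2.29 ± 0.61 (adjusted p = 0.103) with a highest value of 2475 in VIPKO hypoxia 1, and the cold-inducible Rbm3 lay on the lower side at -1.10 ± 0.25 (adjusted p = 0.0674). Immediate early genes had 0 of 21 called, 5 higher at an unadjusted p under 0.05 and a median of 0.50 (0.07 with the airway covariate), with Dusp1 at 1.42 and Zfp36 at 1.04. In the glucocorticoid-responsive list, whose median was -0.18 and turned positive with the mitochondrial ribosomal RNA and clock covariates (0.33 with the clock one), Sgk1 and Cdkn1a had 0.92 ± 0.22 (adjusted p = 0.0748) and 0.95 ± 0.26 (adjusted p = 0.11). Neutrophil genes had a median of 0.87 with 0 of 13 called by limma (0 higher and 1 lower at an unadjusted p under 0.05), a median that was -0.03 with the airway list as a covariate, and the receptor Cxcr2 had 1.27 ± 0.73 (adjusted p = 0.441).

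**Figure D4:**
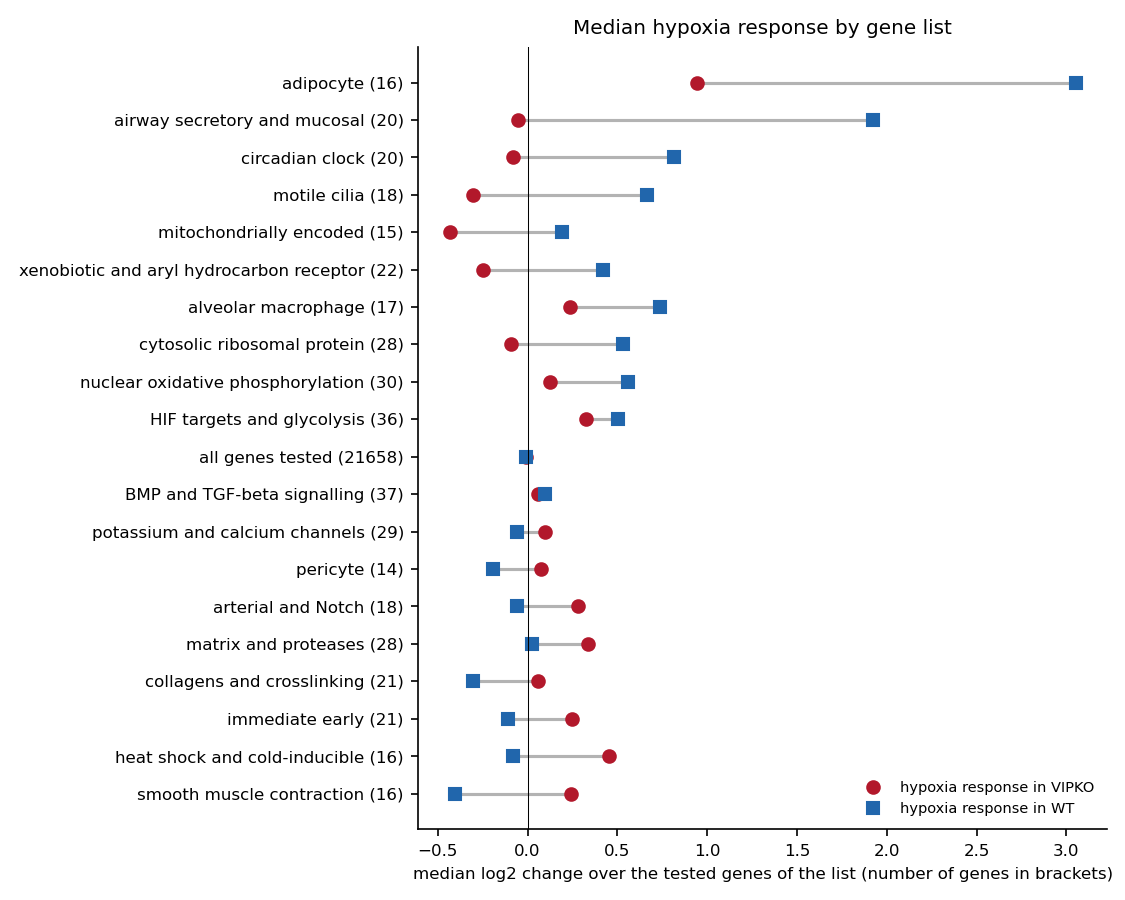
Median log2 hypoxia response over the tested genes of 19 lists and of all genes, in VIPKO (red) and WT (blue), with the number of genes in brackets. Among the lists shown, the adipocyte and airway lists have the widest gaps, with WT higher. The smooth muscle and heat shock lists have VIPKO higher. Lists not shown include hemoglobin and erythroid genes (1.10 in VIPKO, 0.08 in WT), neutrophil genes (1.42 and 0.67) and skeletal muscle genes (0.27 and 1.27).

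Clock genes, airway genes and mitochondrial ribosomal RNA differed between the groups, though not all in the same pattern. The clock gene Dbp was 1772, 2385, 3044, 345 and 2740 in the VIPKO hypoxia libraries, 4673, 3582, 736 and 4058 in VIPKO normoxia, 5557, 4539, 5332, 813 and 5463 in WT hypoxia, and had a lowest, median and highest value of 672, 846 and 1747 in WT normoxia. Arntl, which peaks opposite to Dbp in the daily cycle, was 252, 212, 216, 484 and 159 in the VIPKO hypoxia libraries, 75.4, 123, 622 and 90.8 in VIPKO normoxia, 84.7, 55.8, 99.6, 466 and 96.0 in WT hypoxia, and had a lowest, median and highest value of 228, 393 and 534 in WT normoxia. The library labelled VIPKO hypoxia 4, VIPKO normoxia 3 and WT hypoxia 4 had the lowest Dbp and the highest Arntl of their groups, and no label gives the time of tissue collection. The summed signal of the 20 airway genes was 245200 to 384200 in VIPKO hypoxia, 286800 to 499500 in VIPKO normoxia, 207200 to 488700 in WT hypoxia and 180100 to 247000 in WT normoxia. Scgb1a1 alone held 185500 to 308500, 228200 to 401900, 134500 to 366800 and 138700 to 193300 in the same order, so the sum mostly follows that gene. Other members can differ from it, since WT hypoxia 4 had the lowest sum of its group, 207200, and the highest Bpifa1, 7844. In bulk lung, more cells of a type and more RNA per cell cannot be told apart. The mitochondrial ribosomal RNAs summed to 6678 ± 2266 in VIPKO hypoxia, 18880 ± 6655 in VIPKO normoxia, 2117 ± 2795 in WT hypoxia and 863 ± 673 in WT normoxia (SD, n = 5, 4, 5 and 6). Their medians were higher in VIPKO (5851 in hypoxia, 18150 in normoxia) than in WT (863 in hypoxia, 728 in normoxia), and the WT ranges overlapped.

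With each of these 3 as a covariate, limma called 0 interactions. Unadjusted p-values under 0.05 numbered 1338 with the airway sum, 2013 with log2 Dbp minus Arntl and 2118 with mitochondrial ribosomal RNA. In each of the 3 fits all 61 genes kept their sign and an unadjusted p under 0.05. The 61 were picked from the same libraries for small p-values, which favours this. The median ratio to the uncorrected interaction was 0.759 with the airway sum, 0.955 with the clock genes and 0.991 with mitochondrial ribosomal RNA. The lowest adjusted p was 0.295, 0.125 and 0.073 in that order. The Vegfc interaction was 1.39 with the airway sum and 1.30 with the clock genes. The Fst interaction was 1.45 and 1.72, and the Cyp2a5 interaction -3.33 and -3.91, in the same order. The part of these measures in the remaining genes was not tested.

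**Figure D5:**
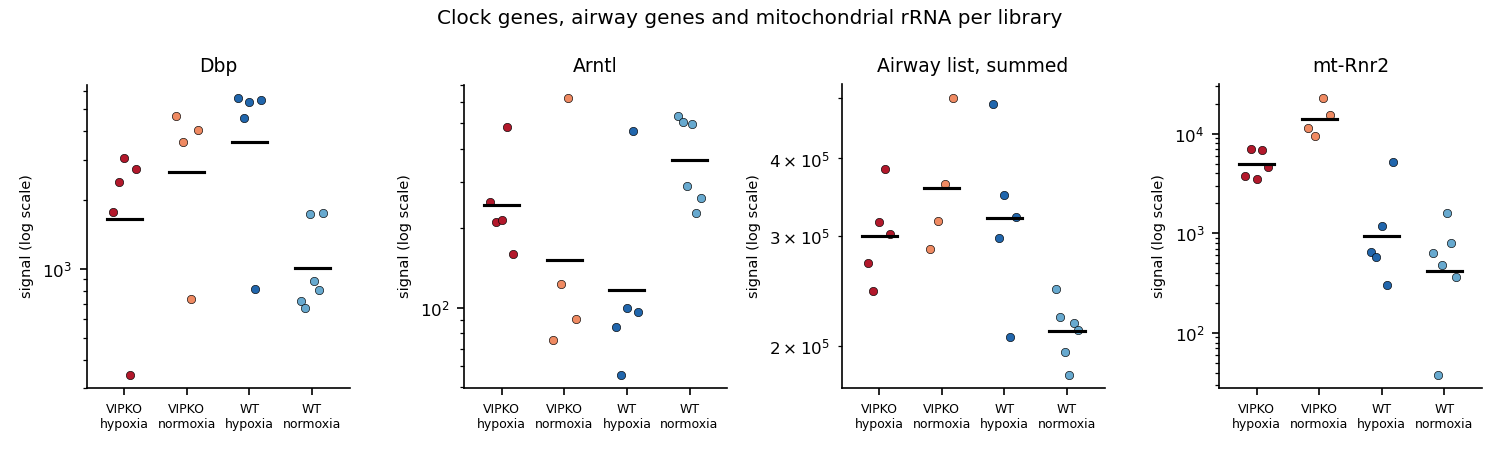
Signal per library (log axes) of Dbp, Arntl, the summed airway list and mt-Rnr2 in VIPKO hypoxia, VIPKO normoxia, WT hypoxia and WT normoxia, with lines at the mean on the log2(signal + 1) scale. The airway sum of WT normoxia ends at 247000, and mt-Rnr2 is highest in VIPKO normoxia.

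The 61 calls lay close to the threshold, with a lowest adjusted p of 0.0117, and their number moved with single libraries. Leaving out 1 library gave 4 to 541 calls. There were fewer without VIPKO hypoxia 1 (8), 2 (27), 4 (9) or 5 (25), VIPKO normoxia 2 (13), 3 (27) or 4 (4), WT hypoxia 1 (12) or 3 (14), and WT normoxia 1 (37), 3 (15), 4 (7) or 6 (35). There were more without VIPKO hypoxia 3 (364), VIPKO normoxia 1 (155) or WT hypoxia 4 (541). Adamtsl4, Cyp2a5, Fst and 1700023B13Rik were called in all 20 of these fits, and Vegfc and Adam15 in 19. With VIPKO hypoxia 2 and both VIPKO normoxia 2 and 3 left out limma called 0 (1886 had an unadjusted p under 0.05), and without VIPKO hypoxia 3 and WT hypoxia 5 there were 292. In both of these fits all 61 genes kept their sign with an unadjusted p under 0.05, which their choice from the same libraries favours.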

How the data were processed

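Whole lung RNA of 20 libraries was extracted with the RNeasy Mini Plus kit and sequenced from NEBNext Ultra II Directional libraries, per the labels' protocols. Partek and the mm10 build are named in the submitters' processing notes, with no version, and no aligner is given in the sources used here. Deposited values are signal, which per the labels are normalized gene counts, with similar sums in each library (18.2 to 21.0 M). Low values were whole multiples of 1 read, within 0.05 reads, for 81.8% to 89.1% of them in 19 libraries and 40.0% in VIPKO hypoxia 2, so fractional reads are present and no count test was run. Estimated depth was 4.96 to 56.7 M reads (median 17.8), which limits precision most in WT hypoxia 4. Of 30746 lines, 55 without a gene name (at most 0.0187% of signal) were left out, and 133 repeated a name, of which 40 were tested. No library was a copy of another.

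Genes at 10 or more in at least 4 libraries (21658) were taken as log2(signal + 1), which understates changes of low genes, and fitted over all 20 libraries with limma 3.58.1 in R 4.3.3 (variance trend, Benjamini-Hochberg adjustment, threshold 0.05), after the scripts were tested on simulated data. Groups came from the labels, in which replicates share numbers. The Vip test was an exact permutation over libraries. Named genes were the 12 largest positive and 12 largest negative called interactions with a group mean of at least 50, passing over unnamed gene models (Gm or Rik names), sex-linked markers and antigen receptor segments, then called or lowest-p members of the described lists, 4 rising and 4 falling additive examples, synergistic genes, and the 5 most like the gene of smallest p. Outside that rule, Plod1, Apba1, Cspg4b, 1700023B13Rik, Gm34455, Septin8, Ift46, Scgb1a1, Muc5b and Sftpc were named after their values were seen. The comparison and the 42 gene lists were chosen with earlier results of these data known. GENCODE M21 annotation (GRCm38) matched 20929 names (96.6%) to 1 locus, and promoter sequence came from RefSeq. Alternatives covered the pseudocount, filter, scaling, variance model, library weights, replicate block, covariates and left-out libraries.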

Additional observations from a re-analysis of the deposited data

Results flagged for a closer look

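In 332 groups of 4 to 6 libraries, 21 held 1 library far from the rest of its group (6.33%), and chance alone gives about 1 in 20. Signal was far above the rest of the group in the library labelled VIPKO hypoxia 4 (106 for Vip, 2964 for Rgs5), VIPKO normoxia 4 (2332 for Cyp2a5), WT hypoxia 1 (92.6 for Fer1l4, 742 for Unc79), VIPKO hypoxia 3 (128 for Ak8, 1767 for Ostf1), WT hypoxia 4 (14650 for Sema3c, 4350 for Zfp36, 3121 for Sgk1), VIPKO normoxia 3 (501 for Vipr2) and VIPKO normoxia 2 (576 for Ift46). Signal was far below the rest in WT hypoxia 1 (49.1 for Fst, 228 for Vipr2), WT normoxia 5 (1516 for Rtl8a, 8655 for Mylk, 451 for Cspg4b), VIPKO normoxia 1 (25.7 for Serpina9) and WT hypoxia 4 (937 for Chmp5, 7285 for Rpl4, 470 for Ift46).

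The VIPKO and WT hypoxia responses differed by the limma interaction test for each called gene that is named. The log2 VIPKO response minus the WT response was positive for Fst (1.63), Serpina3n (1.43), Vegfc (1.26), Lox (1.23), Lipg (1.03), Rtl8a (1.00), Gpx3 (0.94), Adamtsl4 (0.90), Gfod1 (0.87), Adam15 (0.84), Kif26a (0.84), Rras2 (0.82), Srgn (0.73), Nod1 (0.63), Dpp9 (0.69), Plod1 (0.78), Apba1 (0.77), 1700023B13Rik (2.75), Septin8 (0.59) and Gm34455 (3.57). It was negative for Bpifa1 (-6.87), Cyp2a5 (-4.28), Sult1d1 (-3.18), Serpina9 (-2.94), Adh7 (-2.31), Lypd2 (-2.24), Bbox1 (-2.19), Trim9 (-2.08), Fer1l4 (-1.93), Unc79 (-1.93), Usp2 (-1.67), Ak8 (-1.59), Gsto1 (-1.34), Cspg4b (-0.91) and Ift46 (-0.61).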

How the results depend on the processing

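The 61 genes kept their sign and an unadjusted p under 0.05 in each of 36 alternatives that tested them (58 of them under the stricter filter), while the number of calls moved. They were picked from the same libraries for small p-values, which favours this, so it is a description. Pseudocounts, filters, rescaling and robust moderation gave 56 to 63 calls. The fit without a variance trend gave 12 (8 higher, 4 lower, with 10 less than additive, 1 overturned and 1 synergistic), and library weights gave 2228 (1078 higher, 1150 lower, with 2118, 86 and 24). Without VIPKO hypoxia 3 and WT hypoxia 5 there were 292 (115 higher, 177 lower, with 272, 15 and 5), and leaving out the library labelled VIPKO hypoxia 4 left 9 (7 higher, 2 lower, with 7, 1 and 1). With limma, 0 calls in either direction or any class remained with a mitochondrial ribosomal RNA covariate (2118 at an unadjusted p under 0.05), with VIPKO hypoxia 2 and both VIPKO normoxia 2 and 3 left out (1886), and with the airway (1338) or clock (2013) covariate, both chosen after seeing the data.

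The replicate numbers did not pair the libraries (7 of 27 same-numbered pairs correlated above 0.1, median -0.018). With the number as a replicate block 0 interactions passed with limma, in any class or direction (lowest adjusted p 0.054, 2670 at an unadjusted p under 0.05), and hypoxia calls were 90 in VIPKO and 1544 in WT.

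The 216 hypoxia calls in VIPKO became 717 with weights, 45 without those 3 libraries and 118 with the library labelled VIPKO hypoxia 4 left out. The 3173 in WT became 6590 with weights, 1539 with mitochondrial ribosomal RNA, 29 with the airway and 271 with the clock covariate. The correlation of responses, 0.290, was 0.231 without a filter, 0.177 with weights, 0.152 without VIPKO hypoxia 3 and WT hypoxia 5, 0.141 with the airway and 0.120 with the clock covariate. Leaving out 1 library gave 4 to 541 interactions, 3 to 267 higher, 1 to 274 lower, 4 to 507 less than additive, 0 to 22 overturned and 0 to 12 synergistic. It gave 88 to 392 hypoxia calls in VIPKO, 1382 to 4710 in WT, and correlations of 0.176 to 0.379. The cause was not tested.

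Called genes were picked for small p-values in the same libraries, so a change of sign was unlikely for them. Among the named genes, changes of sign touched only uncalled ones. With the airway covariate these were Mme (0.14), S100a6 (0.25), Chmp5 (0.0736), Adrb1 (-0.0414), Bmp6 (-0.27), Prkce (-0.14), Neurl1b (-0.10), Vipr1 (0.0378), Mylk (-0.11), Cxcr2 (-0.17) and Scgb1a1 (0.12). With the clock covariate they were Ostf1 (0.0218), Chmp5 (0.0411) and Neurl1b (-0.0116), and with mitochondrial ribosomal RNA Mme (0.0234), S100a6 (0.0559), Adrb1 (-0.0696) and mt-Rnr2 (0.074). Scgb1a1 is part of the airway sum and mt-Rnr2 part of the mitochondrial ribosomal RNA sum. For Scgb1a1 and mt-Rnr2 a move towards 0 was therefore built in and tests nothing about them. The block gave 0.0166 for S100a6, and leaving out the 3 libraries gave -0.11 for Adrb1 and -0.11 for Prkce. Leaving out 1 library gave -0.165 to 0.015 for Mme, -0.192 to 0.0501 for S100a6, -0.0309 to 0.163 for Adrb1 and -0.0195 to 0.153 for Bmp6. The median half-width of 0.59 is that of an unadjusted 95% interval. A limma call was stricter, since the largest unadjusted p among called genes was 0.00014 (Lipg). In many genes interactions larger than 0.59 could therefore also be missed.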
